A study of Mus musculus with 9 samples.

Results

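The transcription factors that set lung epithelial identity were followed in MLE-12, a mouse lung epithelial line, as 10 genes chosen by name among the 21950 genes of the expression table: Nkx2-1, Foxa1, Foxa2, Gata6, Cebpa, Sox9, Sox2, Klf5, Elf3 and Trp63. All 10 were found, and 7 passed the filter on low values described below. Cebpa, Elf3 and Sox2 did not. The line derives from lung tumours of SP-C/TAg transgenic mice, in which the SV40 T antigen is driven by the promoter of surfactant protein C, itself a target of several of these factors. MLE-12 cells at passage 17 were given extracellular vesicles, membrane-bound particles shed by cells, from the lavage fluid of bleomycin-injured lungs of syndecan-1 deficient mice (KOD21 in the column names) or of wild-type mice (WTD21), or regular culture medium as control. Each of the 3 groups has 3 libraries. Bleomycin is a drug that scars the lung of mice. The donors of both vesicle groups had received it, and no group here received vesicles of uninjured mice, so an effect of vesicles as such and of the injury cannot be told apart. Syndecan-1 is a heparan sulfate proteoglycan of the epithelial surface. The meaning of D21, the vesicle dose and the time of exposure are not given in the labels.

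NKX2-1 is the homeodomain factor of lung and thyroid, and it works with the winged-helix factors FOXA1 and FOXA2 and the zinc-finger factor GATA6 at surfactant genes. C/EBP alpha belongs to the maturation of alveolar type 2 cells, SOX9 to the progenitors at the tips of the branching lung, and SOX2 to the conducting airways. KLF5 and ELF3 are broadly epithelial factors, and p63, the product of Trp63, defines basal cells.

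Expression was deposited as RPKM, reads divided by the length of the gene and by the total of the library. Library totals recovered from the steps of low RPKM values lay between 24353257 and 33558660 reads. Differences were tested with limma on log2(RPKM + 1) for the 11125 genes with a mean of at least 1 RPKM over the 9 libraries. A gene is called at an adjusted p under 0.05, and values after ± are SDs for RPKM (n = 3) and standard errors for log2 fold changes. The added 1 makes log2 fold changes of low genes smaller than the ratio of their RPKM. The labels do not say that the 3 samples of a group came from separate cultures or vesicle preparations, so p-values measure the spread between these samples, which may be technical. Wild-type vesicle replicate 3 stood apart from replicates 1 and 2 on the second principal component (10.2% of the variance), at -2.41 against 14.4 and 17.2, nearer to the syndecan-1 deficient vesicle libraries at -6.82, -13.3 and -9.71. Most genes differed between vesicles and medium. With syndecan-1 deficient vesicles 75.2% of tested genes were called against control (48.8% higher and 26.5% lower), and with wild-type vesicles 75.1% (45% higher and 30% lower). The median log2 fold change of all tested genes was 0.13 with syndecan-1 deficient vesicles and 0.09 with wild-type vesicles. Rescaling the libraries by median-of-ratios factors moved these medians to -0.04 and -0.03. After it 3823 of the 11125 genes were called higher and 4575 lower with syndecan-1 deficient vesicles, and 3956 and 4489 with wild-type vesicles. The 2 comparisons with control use the same 3 control libraries, so their values are given side by side and their resemblance is not a result.

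Of the 7 factors tested, 5 were called in each comparison with control, beside the 75.2% and 75.1% of all genes: Nkx2-1, Foxa1, Sox9 and Klf5 were higher with either vesicle type, and Trp63 was lower. Foxa2 and Gata6 were not called. The median log2 fold change of the 7 was 0.44 with syndecan-1 deficient and 0.35 with wild-type vesicles. Between the vesicle types 0 of 7 were called, beside 18.4% of all genes (12.9% higher and 5.43% lower), and 0 had an unadjusted p under 0.05. With medians of ratios as scaling, the 4 higher factors and Trp63 kept their calls and direction in both comparisons with control. Because these are bulk cultures, fewer cells that express a gene and less of its RNA per cell cannot be told apart.

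**Figure D1:**
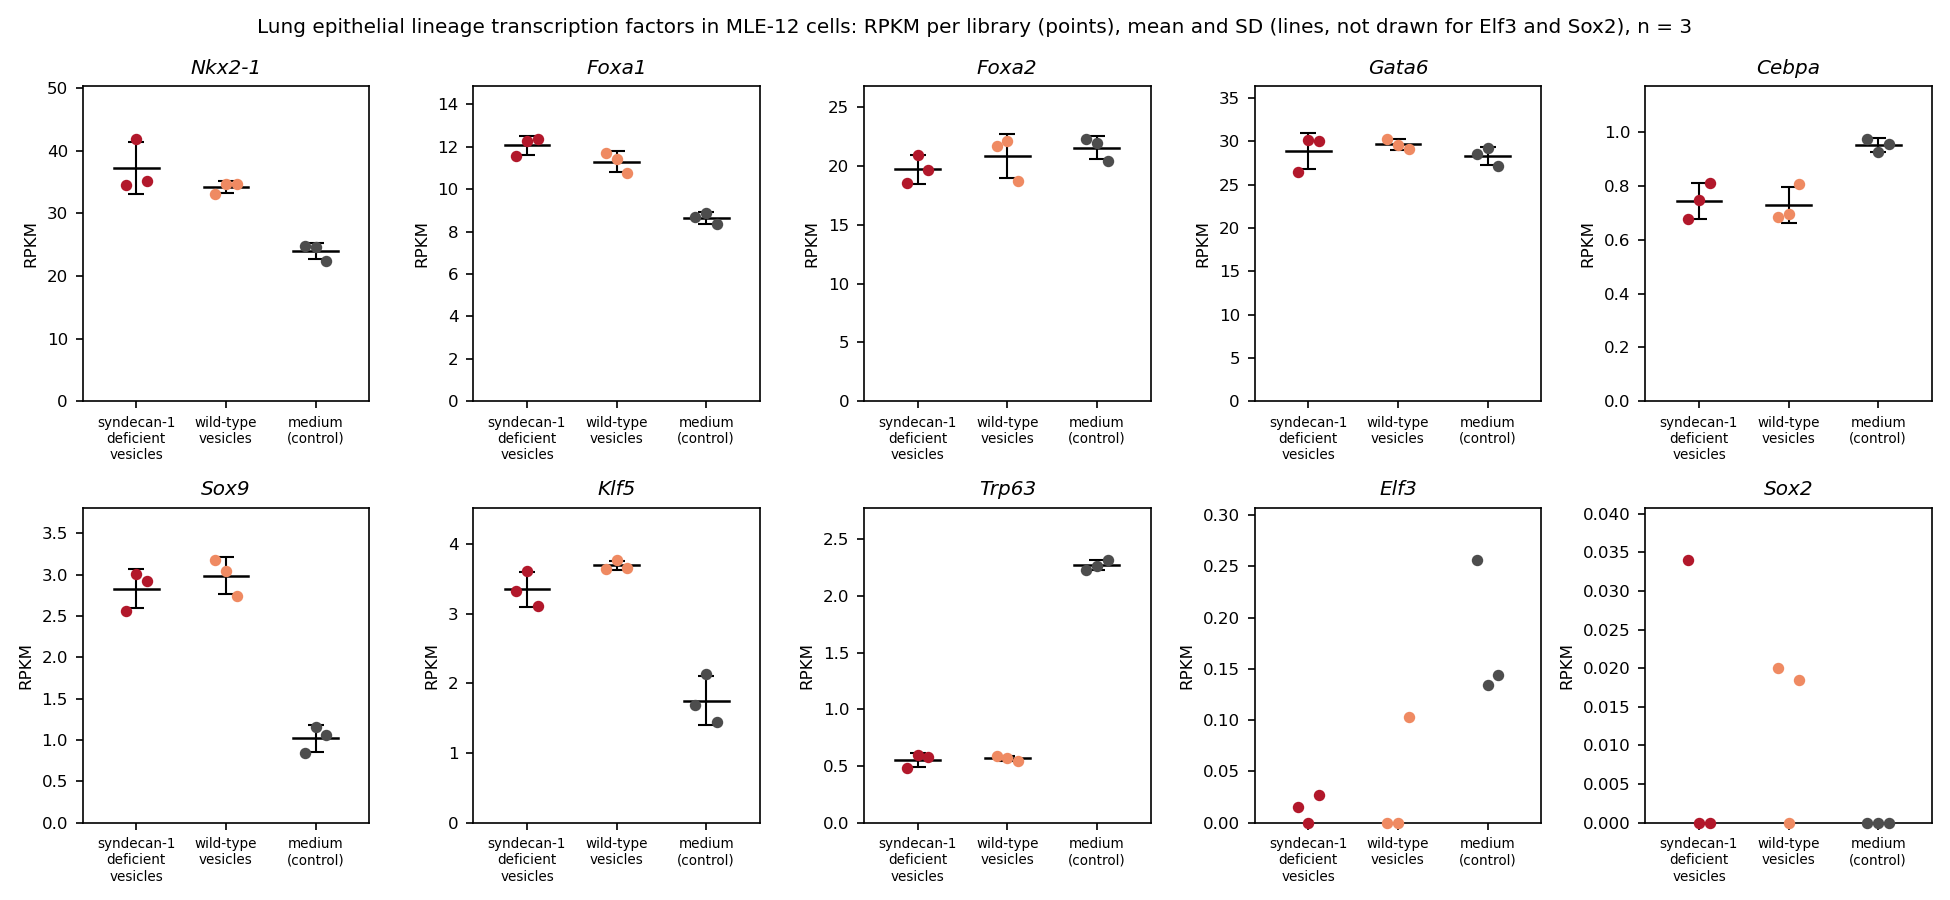
RPKM (vertical axis, from 0) of the 10 factors in cells given syndecan-1 deficient vesicles, wild-type vesicles or medium; points are libraries, lines the mean and SD of 3 libraries, which are not drawn for Elf3 and Sox2. For Nkx2-1, Foxa1, Sox9 and Klf5 all 6 vesicle libraries lie above the 3 control libraries, for Trp63 and Cebpa they lie below, and for Foxa2 and Gata6 the groups overlap.

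Surfactant genes and the factors themselves are textbook targets of NKX2-1 and FOXA, and their promoters were read for the core letters of both motifs in the 250 bases upstream of each start site (RefSeq, GRCm38.p6). The NKX2-1 motif searched was CTCAAG and the FOXA motifs were TGTTTAC and TGTTTGC, on both strands, and the matches shown do not overlap. Of the 32851 windows of this length in the table, 13.3% held the NKX2-1 motif and 7.29% a FOXA motif. The table had windows for 6 of the 10 factors. The NKX2-1 motif was found for 1 of them, in 1 of the 3 start sites of Foxa2, and a FOXA motif for 1, Foxa1. It also had windows for 5 of the 6 tested target genes described below, of which 2 held the NKX2-1 motif and 1 a FOXA motif. Among listed targets below the filter, Cldn18 and Lamp3 held a FOXA motif and Sfta2 the NKX2-1 motif. The windows of Muc1, Slc34a2, Cldn3, Cldn4 and Lmo3 held neither. Nor did those of Nkx2-1 and of the tested targets Abca3, Ager and Lpcat1, all called higher with vesicles. Lamp3 and Sfta2 were nearly undetected, and Cldn18 was below control in all vesicle libraries, so the letters were not limited to genes that rose. The windows of Foxa1, Sftpb and Sftpa1 are printed because they hold these letters in a factor and in surfactant genes that were called higher with vesicles. They run 5′ to 3′ on the strand of the gene and end at the base before the start site, with motif matches in capitals. In GENCODE all of the Sftpb window and nearly all of the Sftpa1 window are intergenic, and the Foxa1 window lies just before the coding transcript, mostly within an intron of a longer noncoding one.
Foxa1, chr12:57546112-57546361, minus strand: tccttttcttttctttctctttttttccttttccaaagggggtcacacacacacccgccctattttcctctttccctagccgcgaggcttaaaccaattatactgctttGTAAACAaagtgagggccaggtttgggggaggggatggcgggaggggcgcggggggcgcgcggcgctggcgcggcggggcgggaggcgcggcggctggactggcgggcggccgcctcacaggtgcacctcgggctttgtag
Sftpb, chr6:72304360-72304609, plus strand: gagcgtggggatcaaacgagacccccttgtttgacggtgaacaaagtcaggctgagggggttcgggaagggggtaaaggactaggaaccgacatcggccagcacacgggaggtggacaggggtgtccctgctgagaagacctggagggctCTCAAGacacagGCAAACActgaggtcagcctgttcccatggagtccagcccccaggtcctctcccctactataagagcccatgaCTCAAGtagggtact
Sftpa1, chr14:41131538-41131787, plus strand: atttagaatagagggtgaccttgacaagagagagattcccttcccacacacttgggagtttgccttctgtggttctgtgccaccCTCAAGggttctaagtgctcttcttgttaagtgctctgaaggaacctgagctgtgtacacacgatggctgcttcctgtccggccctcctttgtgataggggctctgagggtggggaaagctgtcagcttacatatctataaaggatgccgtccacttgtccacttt
In Sftpb the NKX2-1 letters begin at positions -100 and -15 from the start site, and the FOXA letters lie between the pair, beginning at -88 on the opposite strand. In Sftpa1 the NKX2-1 letters begin at -166, and in Foxa1 the FOXA letters begin at -141, also on the opposite strand. These are matches of letters, and binding was not measured.

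Nkx2-1 (ENSMUSG00000001496, chromosome 12 at 56531958 to 56536908, minus strand, GRCm38) was higher with both vesicle types. It had 34.5, 41.9 and 35.2 RPKM with syndecan-1 deficient vesicles, 33.1, 34.7 and 34.7 RPKM with wild-type vesicles, and 24.8, 24.7 and 22.4 RPKM in control. All 6 vesicle libraries lay above the highest control library, and the vesicle groups overlapped each other. Non-overlap with control was common: it held for 81% of tested genes with syndecan-1 deficient vesicles (51.4% higher and 29.5% lower) and for 78.2% with wild-type vesicles (46.9% higher and 31.3% lower). The mean was 37.2 ± 4.1, 34.2 ± 0.94 and 24.0 ± 1.3 RPKM in the same 3 groups, 1.55 and 1.43 times control for the 2 vesicle types. The log2 fold change against control was 0.61 ± 0.071 with syndecan-1 deficient vesicles (limma adjusted p = 2.04e-05) and 0.50 ± 0.071 with wild-type vesicles (limma adjusted p = 9.75e-05). After median-of-ratios scaling the log2 fold changes were 0.42 and 0.36. By the deposited values Nkx2-1 was the highest of the 10 factors per length with both vesicle types, and the second highest in control, after Gata6. With the annotated length of Gata6, which gives that gene 13.9 RPKM in control, Nkx2-1 would be the highest in every group.

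Foxa1 and Foxa2 encode closely related pioneer factors that open chromatin at endodermal genes. Foxa1 was called higher with vesicles and Foxa2 was not called. Foxa1 (ENSMUSG00000035451, chromosome 12 at 57540628 to 57546916, minus strand) had 11.6, 12.3 and 12.4 RPKM with syndecan-1 deficient vesicles, 11.7, 11.4 and 10.8 RPKM with wild-type vesicles, and 8.67, 8.88 and 8.34 RPKM in control. Every vesicle library was above every control library. The group means were 12.1 ± 0.44, 11.3 ± 0.49 and 8.63 ± 0.27 RPKM. The log2 fold change against control was 0.44 ± 0.046 with syndecan-1 deficient vesicles (limma adjusted p = 9.8e-06) and 0.35 ± 0.046 with wild-type vesicles (limma adjusted p = 5.28e-05). Median-of-ratios scaling gave 0.26 and 0.22, still called.

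Foxa2 (ENSMUSG00000037025, chromosome 2 at 148042877 to 148046969, minus strand) had 18.5, 20.9 and 19.7 RPKM with syndecan-1 deficient vesicles, 21.7, 22.1 and 18.7 RPKM with wild-type vesicles, and 22.3, 21.9 and 20.4 RPKM in control. The 3 groups overlapped. The log2 difference from control was -0.12 with syndecan-1 deficient vesicles (95% interval -0.28 to 0.03, limma adjusted p = 0.122) and -0.05 with wild-type vesicles (95% interval -0.20 to 0.10, limma adjusted p = 0.537). The call depends on the scaling and on wild-type vesicle libraries. After median-of-ratios scaling Foxa2 was lower with both, at -0.32 on the log2 scale with syndecan-1 deficient vesicles (limma adjusted p = 0.00243) and at -0.18 with wild-type vesicles (limma adjusted p = 0.0386). Without wild-type vesicle replicate 3 it was called lower with syndecan-1 deficient vesicles (-0.12, limma adjusted p = 0.0388). Without wild-type vesicle replicates 1 and 2 it was called lower with wild-type vesicles (-0.19, limma adjusted p = 0.0435).

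A ratio of genes within a library does not depend on how libraries are scaled to each other. The ratio of Foxa1 to Foxa2 RPKM was 0.624, 0.586 and 0.630 with syndecan-1 deficient vesicles, 0.540, 0.516 and 0.574 with wild-type vesicles, and 0.388, 0.405 and 0.408 in control. The 3 groups did not overlap, in the order syndecan-1 deficient vesicles, wild-type vesicles, control. Among single tested genes, vesicle and control libraries did not overlap for 81% with syndecan-1 deficient and 78.2% with wild-type vesicles. The vesicle types did not overlap for 32.3% of genes. The share among pairs of genes was not computed. Each of the 3 differences had an exact permutation p = 0.1 (two-sided), the smallest that 3 against 3 libraries allow, so that none of the 12 ratio tests run could reach 0.05 (adjusted p = 0.171 for these 3). A difference in the ratio would mean unequal change of the 2 genes and would not show which of them changed. The ratio of Nkx2-1 to Foxa2 RPKM averaged 1.89 with syndecan-1 deficient vesicles, 1.65 with wild-type vesicles and 1.11 in control, and its vesicle groups overlapped. Foxa1 relative to Nkx2-1 averaged 0.327, 0.331 and 0.361 in the same order (exact permutation p = 0.2, 0.2 against control and 0.9 between vesicle types).

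**Figure D2:**
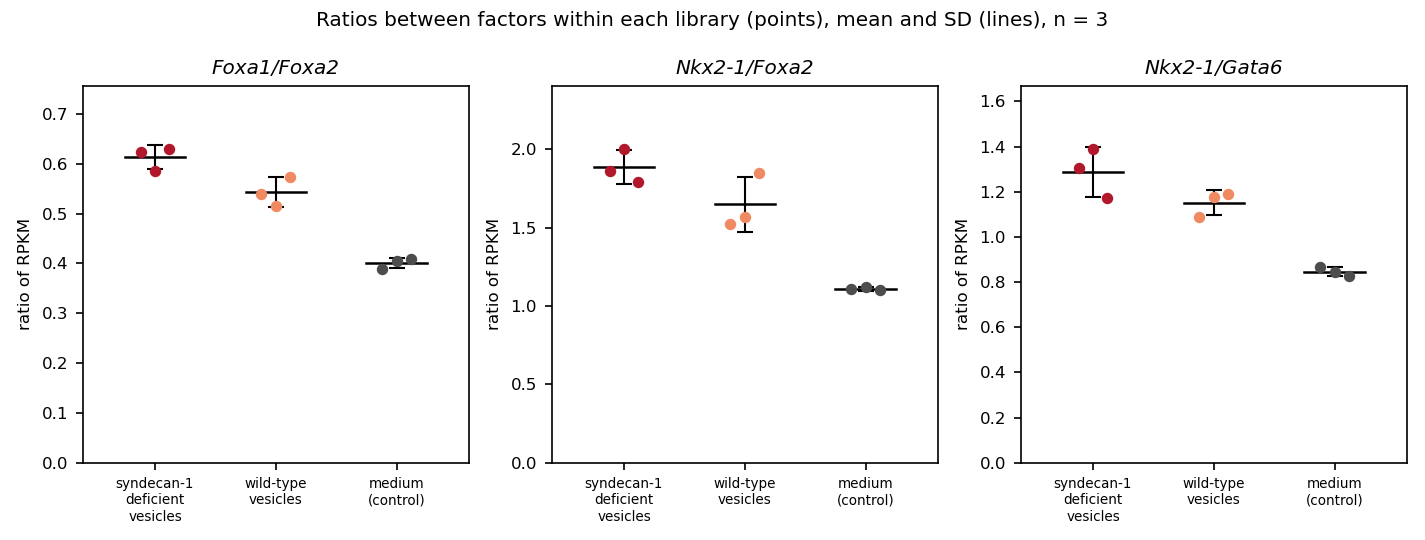
Ratios of RPKM between pairs of factors within each library (vertical axis, from 0, no unit), for syndecan-1 deficient vesicles, wild-type vesicles and medium; points are libraries, lines the mean and SD of 3. The Foxa1 to Foxa2 ratio lies between 0.586 and 0.630, between 0.516 and 0.574, and between 0.388 and 0.408 in these groups.

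Gata6 (ENSMUSG00000005836, chromosome 18 at 11052064 to 11085635, plus strand) encodes the GATA factor of distal lung epithelium and was not called in any comparison. It had 26.5, 30.2 and 30.1 RPKM with syndecan-1 deficient vesicles, 30.3, 29.6 and 29.1 RPKM with wild-type vesicles, and 28.6, 29.2 and 27.2 RPKM in control. With syndecan-1 deficient vesicles 1 library lay below all control libraries and the other two above them. The log2 difference from control was 0.03 with syndecan-1 deficient vesicles (95% interval -0.10 to 0.15, limma adjusted p = 0.677) and 0.07 with wild-type vesicles (95% interval -0.06 to 0.19, limma adjusted p = 0.296). With median-of-ratios scaling both turned sign, to -0.17 with syndecan-1 deficient vesicles, which was called (limma adjusted p = 0.0188), and to -0.07 with wild-type vesicles, which was not (limma adjusted p = 0.256). Nkx2-1 relative to Gata6 averaged 1.29 ± 0.11, 1.15 ± 0.054 and 0.845 ± 0.020 with syndecan-1 deficient vesicles, wild-type vesicles and medium (SD, n = 3 each). Neither vesicle group overlapped control (exact permutation p = 0.1, the smallest possible). Such non-overlap was common among single genes, as given for Nkx2-1.

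Cebpa (ENSMUSG00000034957, chromosome 7 at 35119293 to 35121928, plus strand), a factor of type 2 cell maturation, stayed below the filter. It had 0.677, 0.750 and 0.811 RPKM with syndecan-1 deficient vesicles, 0.686, 0.698 and 0.807 RPKM with wild-type vesicles, and 0.977, 0.928 and 0.956 RPKM in control. Behind these values stood 51, 59 and 70 reads, 44, 47 and 56 reads, and 77, 82 and 63 reads. All vesicle libraries were below all control libraries, and the vesicle groups overlapped. In a fit without the filter the log2 fold change of Cebpa was -0.16 with syndecan-1 deficient vesicles (limma adjusted p = 0.00812) and -0.18 with wild-type vesicles (limma adjusted p = 0.00561). Thus Nkx2-1 and Foxa1 were higher and, in this unfiltered fit, Cebpa was lower in the same libraries.

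Sox9 (ENSMUSG00000000567, chromosome 11 at 112782224 to 112787760, plus strand), the factor of distal tip progenitors, had the largest positive fold change of the 7 tested factors. It had 2.56, 3.01 and 2.92 RPKM with syndecan-1 deficient vesicles, 3.18, 3.05 and 2.75 RPKM with wild-type vesicles, and 0.841, 1.16 and 1.06 RPKM in control. These are 303, 371 and 396 reads, 320, 322 and 299 reads, and 104, 161 and 110 reads. The lowest vesicle library was above 2 RPKM and the highest control library below it. Mean RPKM was 2.77 times control with syndecan-1 deficient vesicles and 2.93 times control with wild-type vesicles. The log2 fold change was 0.92 ± 0.075 (limma adjusted p = 1.45e-06) with syndecan-1 deficient vesicles and 0.98 ± 0.075 (limma adjusted p = 9.14e-07) with wild-type vesicles. On recovered reads, with voom in limma and no added 1, it was 1.48 and 1.55.

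Sox2 (ENSMUSG00000074637, chromosome 3 at 34650405 to 34652461, plus strand), the SOX factor of the airways, was at the limit of detection. It had 2, 0 and 0 reads with syndecan-1 deficient vesicles, 1, 0 and 1 with wild-type vesicles, and 0 in each control library. A count of 0 allows up to 3 reads, which for Sox2 is 0.0435 to 0.0599 RPKM depending on the library, and the highest value measured was 0.0340 RPKM. A difference in Sox2 was not detectable at this depth. Intervals and limits of this kind cover counting error only.

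Klf5 (ENSMUSG00000005148, chromosome 14 at 99298691 to 99315036, plus strand), a Krüppel-like factor of epithelial growth and lung maturation, was higher with vesicles. It had 3.33, 3.62 and 3.12 RPKM with syndecan-1 deficient vesicles, 3.65, 3.77 and 3.66 RPKM with wild-type vesicles, and 1.69, 2.13 and 1.44 RPKM in control. No vesicle library reached down to the control range. The log2 fold change against control was 0.67 ± 0.084 with syndecan-1 deficient vesicles (limma adjusted p = 3.59e-05) and 0.78 ± 0.084 with wild-type vesicles (limma adjusted p = 1.17e-05). Mean RPKM was 1.92 and 2.11 times control. Klf5 was also the one tested factor whose vesicle groups did not overlap, as for 32.3% of all tested genes (11.2% lower and 21.1% higher): each syndecan-1 deficient library was below each wild-type library. That difference was -0.11 on the log2 scale (95% interval -0.30 to 0.08, limma adjusted p = 0.356).

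Elf3 (ENSMUSG00000003051, chromosome 1 at 135253575 to 135258568, minus strand), an epithelial ETS factor, was nearly undetected. It had 1, 0 and 2 reads with syndecan-1 deficient vesicles, 0, 0 and 6 with wild-type vesicles, and 17, 10 and 8 in control. The values were 0.0158, 0 and 0.0275 RPKM with syndecan-1 deficient vesicles, 0, 0 and 0.103 RPKM with wild-type vesicles, and 0.256, 0.134 and 0.144 RPKM in control. All vesicle libraries lay below control. Summed reads per library total were 0.0831 of control with syndecan-1 deficient vesicles (95% exact interval 0.0164 to 0.264) and 0.199 of control with wild-type vesicles (95% exact interval 0.0684 to 0.478). In the unfiltered fit the log2 fold changes were -0.21 (limma adjusted p = 0.00478) and -0.19 (limma adjusted p = 0.00957). Elf3 shares 5.29% of its exonic 50-base sequences with other genes and is overlapped by the antisense gene Gm26642 over 162 bases, and whether counting used strand is not given in the sources used here, so the few reads are uncertain.

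Trp63 (ENSMUSG00000022510, chromosome 16 at 25683763 to 25892102, plus strand), the basal cell factor, had the largest log2 fold change in size of the 7 tested factors. It passed the filter only through its control values, and it was also called lower without a filter. It had 0.483, 0.599 and 0.578 RPKM with syndecan-1 deficient vesicles, 0.592, 0.569 and 0.547 RPKM with wild-type vesicles, and 2.23, 2.27 and 2.32 RPKM in control. The reads were 116, 150 and 159, then 121, 122 and 121, and in control 559, 638 and 486. The groups with vesicles lay far below control, and they overlapped each other. Mean RPKM of Trp63 was 0.244 of control with syndecan-1 deficient vesicles and 0.251 of control with wild-type vesicles. The log2 fold change was -1.07 ± 0.053 (limma adjusted p = 4.35e-08) and -1.06 ± 0.053 (limma adjusted p = 4.59e-08), and on recovered reads with voom it was -2.03 and -1.99.

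**Figure D3:**
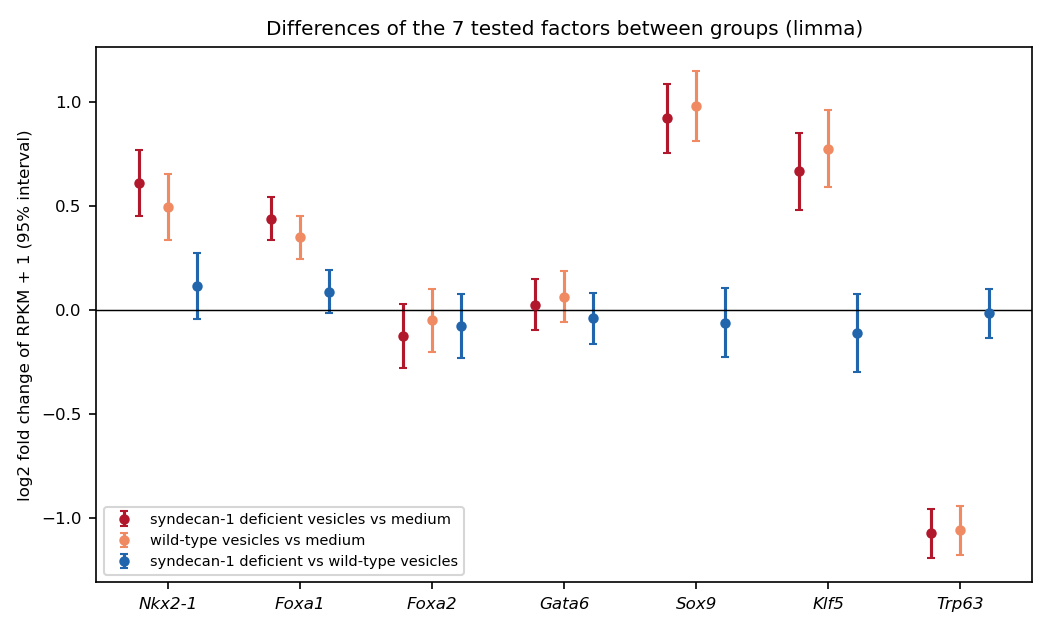
Log2 fold changes on the log2(RPKM + 1) scale (vertical axis) of the 7 tested factors for syndecan-1 deficient vesicles against control, wild-type vesicles against control and syndecan-1 deficient against wild-type vesicles; points are limma estimates and bars 95% intervals. Sox9 lies at 0.92 and 0.98 and Trp63 at -1.07 and -1.06 against control, and every interval between the vesicle types includes 0.

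Between the vesicle types the intervals reflect only the spread between these samples, which may be technical. They do not bound a difference that was missed. For Nkx2-1 the log2 difference of syndecan-1 deficient from wild-type vesicles was 0.12 (95% interval -0.04 to 0.27, limma adjusted p = 0.255). For Foxa1 it was 0.09 (-0.01 to 0.19, limma adjusted p = 0.185), for Sox9 -0.06 (-0.23 to 0.11, limma adjusted p = 0.586), and for Trp63 -0.02 (-0.13 to 0.10, limma adjusted p = 0.849). Foxa2 differed by -0.08 (limma adjusted p = 0.434) and Gata6 by -0.04 (limma adjusted p = 0.623). The smallest unadjusted limma p of the 7 was 0.0841. In the unfiltered fit Cebpa, Elf3 and Sox2 had adjusted p of 0.877, 0.766 and 0.956 (limma). The count over all genes in this comparison rests on single libraries, since it was 2042 with all libraries and 0 without wild-type vesicle replicate 1 or 2 or syndecan-1 deficient vesicle replicate 2, 2 without syndecan-1 deficient vesicle replicate 3, and 4686 without wild-type vesicle replicate 3. It was also lower without control library 1, 2 or 3, at 733, 909 and 704. The count of factors called stayed 0 in all of these. Over the 19 alternatives the lowest adjusted p of the 7 tested factors between vesicle types was 0.0531 (limma), for Foxa2.

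Per length, the order of the factors in both vesicle groups was Nkx2-1, Gata6, Foxa2, Foxa1, Klf5, Sox9, Cebpa and Trp63, followed by Elf3 and Sox2, whose values overlapped. In control it was Gata6, Nkx2-1, Foxa2, Foxa1, Trp63, Klf5, then Sox9 and Cebpa, which overlapped, then Elf3 and Sox2. Trp63 thus stood above Klf5, Sox9 and Cebpa in control and below all 3 with vesicles. The place of Gata6 and Klf5 depends on the gene length used. The deposited RPKM of Gata6 follow from 3194 bases where its annotated exons sum to 6508, and those of Klf5 from 1721 against 5201. With the annotated length Gata6 would average 14.2, 14.6 and 13.9 RPKM with syndecan-1 deficient vesicles, wild-type vesicles and medium, below Foxa2 in each group, and Klf5 1.11, 1.22 and 0.580 RPKM, below Sox9 in each. The ratio of a gene's RPKM between groups does not depend on this length, but its log2(RPKM + 1) fold change does, through the added 1; the voom fold changes of Klf5, which are free of it, were 0.93 and 1.07 against control. No factor but Elf3 shared more than 1.38% of its 50-base sequences with another gene, the value of Nkx2-1.

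Of 18 listed target genes of NKX2-1 and FOXA, surfactant genes among them, 6 passed the filter. Sftpa1 passed it only through its vesicle values, so its rise is tied to the filter. The others, Sftpb, Sftpc, Abca3, Ager and Lpcat1, rose with syndecan-1 deficient and with wild-type vesicles, beside 48.8% and 45% of all genes called higher. They also rose under median-of-ratios scaling, beside 3823 and 3956 of the 11125 genes. With Sftpa1 counted, the median log2 fold change of the 6 was 1.35 with each vesicle type, against 0.13 and 0.09 for all genes. Sftpb, which encodes surfactant protein B, averaged 60.6 ± 3.8 RPKM with syndecan-1 deficient vesicles, 62.4 ± 7.6 RPKM with wild-type vesicles and 13.6 ± 1.6 RPKM in control. Ager, a type 1 cell gene, averaged 31.1 ± 1.2, 28.1 ± 3.8 and 5.05 ± 0.49 RPKM in the same order. Lpcat1, an enzyme of surfactant lipid synthesis, averaged 55.2 ± 0.61, 51.8 ± 2.8 and 19.1 ± 0.54 RPKM. Sftpa1, for surfactant protein A, averaged 1.48 ± 0.22 and 1.63 ± 0.19 RPKM with the 2 vesicle types and 0.0651 ± 0.021 RPKM in control. Sftpc and Abca3, a surfactant protein and the lipid transporter of lamellar bodies, rose as well. Cldn3, Cldn4 and Lmo3 were listed at 0 in every library. Others of the 12 below the filter went either way. Cldn18 averaged 0.0326, 0.0203 and 0.0700 RPKM with syndecan-1 deficient vesicles, wild-type vesicles and medium and lay below control in all vesicle libraries, while Muc1 averaged 0.412, 0.375 and 0.141 RPKM and lay above. The Cldn18 values rest on 13, 7 and 28 reads summed over each group in the order given. Slc34a2 averaged 0.0197 RPKM with syndecan-1 deficient vesicles against 0.0425 RPKM in control, without overlap, on 9 against 19 summed reads. Sftpd had 2 reads over all libraries. Counts this low are near the limit of detection. Between vesicle types 0 of 6 were called. Whether the factors account for these genes was not tested.

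Among 25 measured factors and partners of the distal lung, 19 passed the filter. With syndecan-1 deficient vesicles 12 rose and 2 fell, and with wild-type vesicles 11 rose and 3 fell, at medians of 0.25 and 0.23. Among all genes 48.8% were called higher and 26.5% lower with syndecan-1 deficient vesicles, and 45% and 30% with wild-type vesicles. Under median-of-ratios scaling the counts were 8 and 5, and 9 and 4, beside 3823 and 4575, and 3956 and 4489, of the 11125 genes. Nr3c1, the glucocorticoid receptor, averaged 14.7 ± 0.96, 12.6 ± 0.87 and 5.31 ± 0.35 RPKM with syndecan-1 deficient vesicles, wild-type vesicles and medium. Tfcp2l1, a grainyhead-related factor, averaged 57.0 ± 5.2, 54.3 ± 0.92 and 21.6 ± 1.3 RPKM, and Hopx, a homeodomain protein of type 1 cells, 45.9 ± 1.3, 41.9 ± 2.2 and 24.96 ± 1.6 RPKM. Etv5, an ETS factor that acts downstream of FGF signalling in tip progenitors and type 2 cells, fell to 7.58 ± 0.90 and 7.92 ± 0.29 RPKM with vesicles, against 16.1 ± 0.31 RPKM in control. Of the 50-base sequences of Hopx and Etv5, 24.0% and 24.5% occur in other genes. Irx1 was listed at 0 throughout.

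Sox9 was set beside the other genes of the distal tip. Of 13 listed genes 9 passed the filter, and 5 rose and 1 fell with syndecan-1 deficient vesicles, while 5 rose and 3 fell with wild-type vesicles, near the shares of all genes just given. The medians were 0.53 and 0.46. Spry2, a feedback inhibitor of FGF signalling, averaged 48.7 ± 1.1, 46.5 ± 2.4 and 18.1 ± 0.77 RPKM with syndecan-1 deficient vesicles, wild-type vesicles and medium. Bmp4, a ligand of the tip, averaged 11.6 ± 0.55, 11.0 ± 0.60 and 6.21 ± 0.27 RPKM, and Ctnnb1, for beta-catenin, 270.3 ± 8.2, 280.3 ± 2.3 and 173 ± 4.3 RPKM. Etv5, named above, fell, so the tip list did not move in 1 direction.

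Klf5 and Elf3 were set beside other epithelial ETS, KLF and grainyhead factors. Of 16 listed, 11 passed the filter, and 10 rose and 1 fell with each vesicle type, at medians of 0.39 with syndecan-1 deficient and 0.42 with wild-type vesicles, beside 48.8% and 45% of all genes called higher. Klf2 and Grhl1 passed the filter only through their vesicle values, so their rise is tied to the filter. Klf2 averaged 3.18 ± 0.55, 3.07 ± 0.49 and 0.991 ± 0.15 RPKM with syndecan-1 deficient vesicles, wild-type vesicles and medium, and Klf6 34.4 ± 1.4, 37.4 ± 2.4 and 19.3 ± 0.33 RPKM. The ETS factors Elf1 and Ets1 also rose, to 15.2 ± 0.28 and 15.2 ± 0.52 RPKM for Elf1 with the 2 vesicle types against 10.3 ± 0.24 RPKM in control. Klf9, a glucocorticoid-inducible repressor, was the one that fell, at 5.05 ± 0.31 and 4.75 ± 0.25 RPKM with vesicles and 6.36 ± 0.18 RPKM in control.

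Trp63 was set beside 14 basal cell genes, of which 6 passed the filter. With syndecan-1 deficient vesicles 4 rose and 1 fell, beside 48.8% of all genes called higher and 26.5% lower. With wild-type vesicles 4 rose and 2 fell, beside 45% and 30%. Aqp3 passed the filter only through its vesicle values and Dlk2 only through control, so their changes are tied to the filter. Under median-of-ratios scaling 3 rose and 2 fell with each, beside 3823 and 3956 of the 11125 genes called higher and 4575 and 4489 lower. Dlk2 fell with Trp63, at 0.725 ± 0.11 and 0.806 ± 0.27 RPKM with syndecan-1 deficient and wild-type vesicles and 2.08 ± 0.24 RPKM in control. Itgb4, the beta-4 integrin of hemidesmosomes, rose to 6.17 ± 0.33 and 6.88 ± 0.39 RPKM, against 1.63 ± 0.072 RPKM in control, and the p63 target Perp rose to 53.6 ± 2.5 and 48.8 ± 5.4 RPKM, against 39.2 ± 1.2 RPKM. The water channel gene Aqp3 rose with both and was lower with syndecan-1 deficient than with wild-type vesicles, at 2.44 ± 0.30 against 3.42 ± 0.29 RPKM (log2 fold change -0.36, limma adjusted p = 0.0255). With only the 2 vesicle groups in the fit 0 genes were called between them, so this call is lost there. The defining basal keratins were scarcely present. Krt5 reached at most 0.0765 RPKM, Krt14 averaged 0.0251 and 0.0228 RPKM with vesicles and 0.650 RPKM in control, and Krt6a was listed at 0 throughout.

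**Figure D4:**
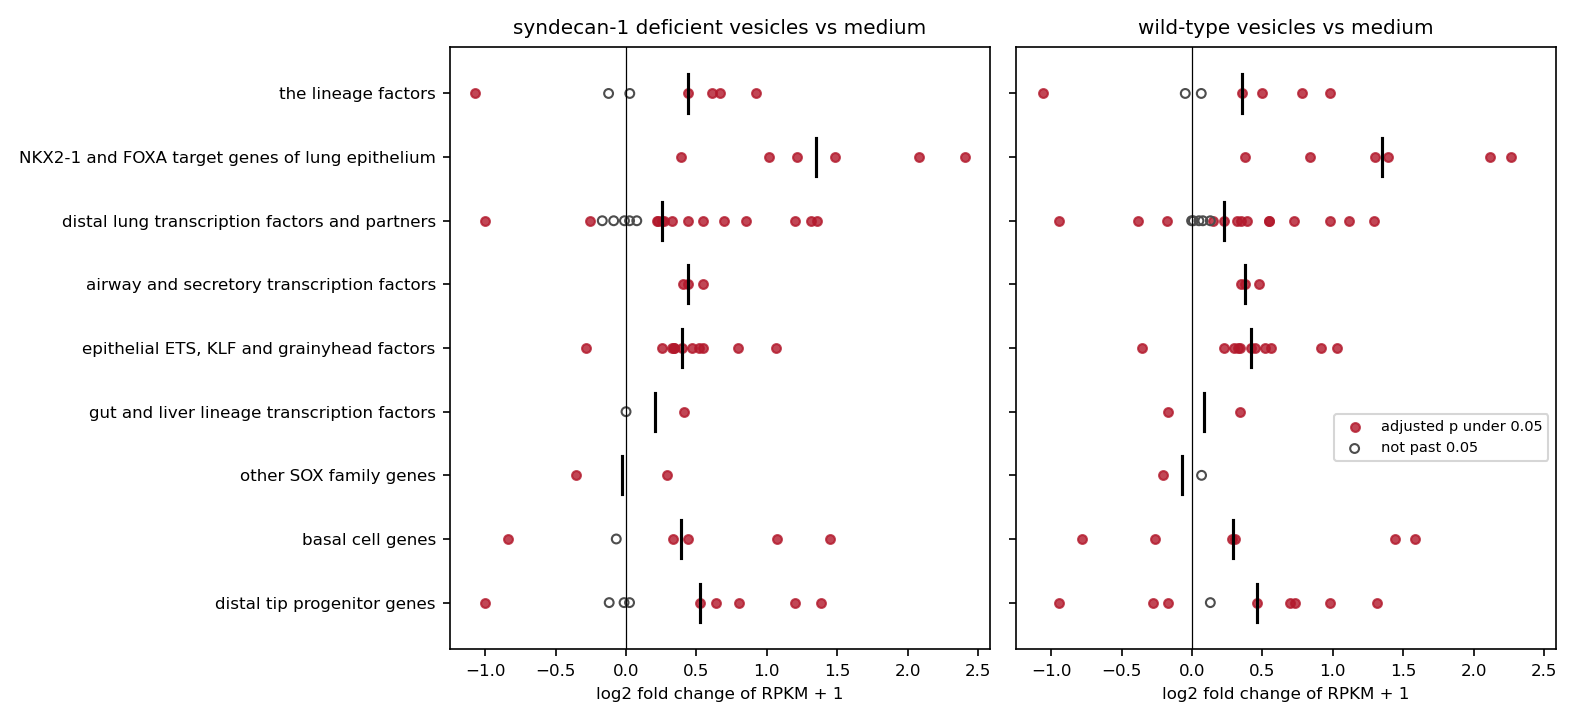
Log2 fold changes on the log2(RPKM + 1) scale (horizontal axis) of all tested genes of each list against control, for syndecan-1 deficient vesicles and wild-type vesicles; each point is a gene, filled where called, and the vertical bar the median of the list. The 6 tested NKX2-1 and FOXA targets all lie above 0, with a median of 1.35, and the basal cell and distal tip lists have genes on either side. Among these 6 targets, Sftpa1 passed the filter only through its vesicle values.

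The label of an epithelial line was checked against markers. Krt8 (29.7% of whose 50-base sequences occur in other genes) and Krt19 were abundant, at 162 ± 10 and 191 ± 13 RPKM with syndecan-1 deficient vesicles, 179 ± 6.9 and 186 ± 23 RPKM with wild-type vesicles, and 337 ± 4.6 and 712 ± 18 RPKM in control. Epcam was listed at 0 in every library, Krt18 reached at most 0.872 RPKM, and Cdh1 averaged 0.157, 0.164 and 1.38 RPKM in this order. Of 4 tested epithelial markers 3 fell with each vesicle type (Krt8, Krt19 and Tjp1; Esrp2 was not called), beside 26.5% and 30% of all genes. The 10 markers summed to 387 to 424 RPKM, 390 to 442 RPKM and 1084 to 1126 RPKM. Fibroblast markers summed to 792 to 917 RPKM, 751 to 894 RPKM and 273 to 282 RPKM, most of it from Dcn (787 ± 67, 787 ± 78 and 196 ± 4.4 RPKM) and Col1a1 (45.7 ± 2.4, 46.5 ± 1.5 and 79.3 ± 0.44 RPKM). Dcn and Pdgfra rose and Col1a1 fell with both vesicle types, Tcf21 was listed at 0 and Col3a1 reached at most 0.00623 RPKM. These lists moved with the same contrast as Nkx2-1, Foxa1, Sox9, Klf5 and Trp63, and their part in those results was not tested.

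Markers of the cells that could come with lavage fluid were low. Macrophage markers summed to 6.12 to 6.94 RPKM with syndecan-1 deficient vesicles, 5.64 to 6.75 RPKM with wild-type vesicles and 5.88 to 6.12 RPKM in control, and Chil3, Marco and Siglecf were listed at 0. Of the tested macrophage genes Csf1r fell with wild-type vesicles (0.976 against 1.47 RPKM in control) and was higher with syndecan-1 deficient than with wild-type vesicles (1.46 against 0.976 RPKM; limma adjusted p = 0.0323, lost like that of Aqp3 with only the 2 vesicle groups fitted), and Mpeg1 rose with both vesicle types but not under median-of-ratios scaling. Neutrophil markers summed to 0.899 to 1.76, 1.16 to 1.48 and 0.996 to 1.35 RPKM, with Elane, Ly6g and Retnlg at 0 and Cxcr2 not called. Lymphocyte markers summed to at most 0.290, 0.178 and 0.160 RPKM, with Cd3d and Nkg7 among those at 0 and none of 8 past the filter. Endothelial and erythroid markers summed to 3.50 to 12.5, 2.41 to 2.62 and 1.34 to 2.83 RPKM. Their highest values came from the globin gene Hbb-bs, which had 7.49, 1.90 and 0.686 RPKM with syndecan-1 deficient vesicles, 0.243, 0.0463 and 0.0449 RPKM with wild-type vesicles, and 0.673, 0.846 and 0.189 RPKM in control. Hbb-bs was called higher with syndecan-1 deficient vesicles than in control (limma adjusted p = 0.0382). It was also called higher than with wild-type vesicles (limma adjusted p = 0.0379, lost with only the 2 vesicle groups fitted). It passed the filter only through its syndecan-1 deficient vesicle values, so these calls are tied to the filter. In addition, 53.2% of its 50-base sequences occur in other genes, so its reads are uncertain. Below the filter, the globin gene Hba-a1 had 2.50, 0.58 and 0.60 RPKM with syndecan-1 deficient vesicles. It had 0.10, 0.048 and 0.094 RPKM with wild-type vesicles and 0.82, 0.77 and 0.15 RPKM in control. Alas2, an erythroid gene, averaged 0.38, 0.29 and 0.19 RPKM in the same order. The endothelial receptor gene Tek rose with both vesicle types, but it passed the filter only through its vesicle values. The part of these markers in the results was not tested.

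For each tested factor the genes whose pattern over the 9 libraries was most like it were found by Pearson's r of log2(RPKM + 1) among the 11125 genes. For Nkx2-1 they were Zfp760, Sgk3 and Cdk4 (r of 0.994, 0.993 and 0.992), and 2669 genes had r above 0.9. For Foxa1 they were Fbrsl1, Atad2 and Stmn1, with 2806 genes above 0.9, for Sox9 Trappc9, Ctps2 and Cd9, with 3058, for Klf5 Slc25a44, Smad2 and Sesn2, with 2647, and for Trp63 Sfxn1, P2ry2 and Impdh1, with 1648. Foxa2 and Gata6 had few or no such genes. Only 11 passed 0.9 for Foxa2, led by Ttc13, Spen and Ston1, and 0 for Gata6, where Elmsan1, Acadvl and Anxa4 came first at 0.896, 0.893 and 0.891. A high r here mainly restates the difference between vesicle and control libraries, which most genes share.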

How the data were processed

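RNA of MLE-12 cells in 9 samples (3 groups of 3) was sequenced from TruSeq stranded mRNA libraries, per the labels' protocols. Builds GRCm38 and mm10 and the aligner TopHat2 (2.0.7) are listed in the submitters' processing notes. The read counter, its use of strand and its annotation are not given in the sources used here. The authors deposited RPKM in 1 table, with 1 column for each library according to its header. The control columns are headed by the line's name with a number, which places them in the control group but not with a given sample. Identifiers were matched to GENCODE release M21 for coordinates (21748 of 21950). Coordinates are 1-based.

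Whole reads and library totals were recovered from the RPKM steps for 18196 of 18207 genes above 0 (99.9%, within 0.01 reads), and for 99.9% of the tested genes. They serve for depth and for an alternative test, voom in limma, added after the data were seen. Limma (version 3.58.1, R 4.3.3) was fitted to log2(RPKM + 1) of all 9 samples with 3 groups, a variance trend and Benjamini-Hochberg adjustment over 11125 genes. Where 3 libraries are set against 3 for a ratio, an exact permutation test over libraries was used. The fit was also run on simulated reads in which few genes changed and the spread was fixed. Most genes were called against control here, so that run does not show how the fit performs on these data. Alternatives were pseudocounts of 0.1 and 0.5, no filter or a mean of at least 5 RPKM, median-of-ratios scaling, a replicate block, only the 2 groups compared, no variance trend, and leaving out libraries.

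The 10 factors and the 15 other lists were chosen with earlier results of these data known. The text names all 10 factors, up to 4 genes per list with the smallest p over the 3 groups plus those listed at 0 in every sample, and for each tested factor the 3 most similar genes. Sftpc, Abca3, Cldn18, Muc1, Slc34a2, Sftpd, Lamp3, Sfta2, Grhl1, Klf9, Krt5, Krt14, Krt18, Cdh1, Col3a1, Foxa3, Foxj1, Hnf4a, Hba-a1 and Alas2 were named after their values were seen. Of the listed genes 2, Cebpd and Nkx2-8, are not used here, and a lymphocyte marker is not reported here by name.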

Additional observations from a re-analysis of the deposited data

How the results depend on the processing

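With 19 alternatives tried, Nkx2-1, Foxa1, Sox9, Klf5 and Trp63 kept their direction and call against control wherever they were tested; the adjusted p (limma) for Nkx2-1 ranged over 5.28e-06 to 0.000224 with syndecan-1 deficient and 1.27e-05 to 0.00178 with wild-type vesicles. The count of factors called between vesicle types was 0 in all 19. At a mean of at least 5 RPKM 4 factors were tested, and in each comparison with control 2 were called, 2 higher and 0 lower. Without a filter 3 were called lower in each. Median-of-ratios scaling gave 3 lower with syndecan-1 deficient and 2 with wild-type vesicles, beside 4575 and 4489 of the 11125 genes. It turned Gata6 to -0.17 on the log2 scale with syndecan-1 deficient and -0.07 with wild-type vesicles. Leaving out 1 library gave 1 to 2 lower with syndecan-1 deficient vesicles, and leaving out wild-type vesicle replicates 1 and 2 gave 2 lower with wild-type vesicles. The extra factors are Cebpa and Elf3 without the filter, and otherwise Foxa2 and Gata6. The cause was not tested. Apart from median-of-ratios scaling, shares of all genes called lower in these settings are not given here. No result about the factors is read from those counts. For all genes between vesicle types the count of 2042 became 1 without a filter, 0 with only the 2 groups, 0 without wild-type vesicle replicates 1 and 2, and 0 to 4686 with 1 library left out. Of the called genes 64.8%, 60.0% and 70.4% were higher in the comparisons of syndecan-1 deficient vesicles with control, wild-type vesicles with control, and the vesicle types, and 45.5%, 46.8% and 41.8% after median-of-ratios scaling. The labels do not say whether the replicate numbers pair the samples. Same-number correlations were -0.196 to 0.285, and without different-number ones beside them they cannot decide it. The replicate block gave 8354, 8331 and 1681 called genes and changed no factor's call. Depth limits Sox2 and Elf3.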

Other observations

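Most factors of other endodermal lineages were low, but Gata4 averaged above Klf5 and Sox9 in each group. Of 11 gut and liver factors 2 passed the filter. Onecut2 rose, to 1.91 ± 0.13 and 1.78 ± 0.12 RPKM with syndecan-1 deficient and wild-type vesicles, against 1.19 ± 0.060 RPKM in control. Gata4, a relative of Gata6 with roles in gut and heart, averaged 5.05 ± 0.30, 4.38 ± 0.16 and 5.05 ± 0.21 RPKM. It fell with wild-type vesicles (limma adjusted p = 0.0122) and was higher with syndecan-1 deficient than with wild-type vesicles (limma adjusted p = 0.0476, but 0.099 after median-of-ratios scaling, and not with only the 2 vesicle groups fitted). Hnf4a reached at most 0.216 RPKM, and Cdx2, Hnf4g and Pdx1 were listed at 0.

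Of 15 airway and secretory factors 3 passed the filter. Rfx2, Rfx3 and Hes1 rose with both vesicle types, beside 48.8% and 45% of all genes called higher. They rose also after median-of-ratios scaling, beside 3823 and 3956 of the 11125 genes. Rfx2, a factor of ciliated cells, averaged 5.50 ± 0.25, 5.19 ± 0.17 and 3.47 ± 0.31 RPKM with syndecan-1 deficient vesicles, wild-type vesicles and medium. Foxj1, the factor of motile cilia, stayed below the filter at 1.51 ± 0.17, 1.17 ± 0.14 and 0.191 ± 0.034 RPKM. Foxa3, the relative of Foxa1 and Foxa2 known from liver, had 0.601, 0.378 and 0.494 RPKM with syndecan-1 deficient vesicles, 0.363, 0.403 and 0.261 RPKM with wild-type vesicles, and 0.0985, 0.117 and 0.0589 RPKM in control, so that its vesicle libraries all lay above control. Insm1 and Mcidas were listed at 0. Airway cell markers summed to 16.4 to 17.8, 20.1 to 24.5 and 26.7 to 27.6 RPKM, and Muc5b, a secreted mucin, averaged 12.8 ± 0.77, 18.8 ± 2.0 and 25.7 ± 0.59 RPKM and was called in all 3 comparisons. Tppp3 rose with both vesicle types, but it passed the filter only through its vesicle values, so its rise is tied to the filter. Tppp3 was higher with syndecan-1 deficient than with wild-type vesicles, at 2.52 ± 0.089 against 2.06 ± 0.14 RPKM (limma adjusted p = 0.0333, but 0.0621 after median-of-ratios scaling). With only the 2 vesicle groups fitted, neither gene was called between them.

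Of 13 other SOX genes 2 passed the filter. Sox12 fell, to 6.34 ± 0.41 and 7.14 ± 0.24 RPKM with syndecan-1 deficient and wild-type vesicles, against 8.40 ± 0.30 RPKM in control. Sox4 was called higher with syndecan-1 deficient vesicles, at 36.6 ± 5.9 against 29.4 ± 1.6 RPKM in control, but not after median-of-ratios scaling, and 54.1% of its 50-base sequences occur in other genes, so its reads are uncertain. Sox1 was listed at 0.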
